A study of Mus musculus with 6 samples.

Results

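The thymosin and prothymosin family in this data set consisted of 4 of the 38293 genes in the count table: Tmsb4x (thymosin β4), Tmsb10 (thymosin β10), Ptma (prothymosin α) and Ptms (parathymosin). They were chosen by name, as the genes of 2 secreted factors that the study followed and their close relatives, and all 4 passed the filter on low counts. The transcripts of Tmsb4x, Tmsb10 and Ptma were most abundant in 1 library of control mice, and none of the 4 genes differed between Zeb2 cKO and control hearts by more than the spread between mice. In addition, pseudogenes of almost the same sequence as Tmsb10 and Ptma held counts of a size similar to those of the genes.

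Thymosin β4 and thymosin β10 are short cytoplasmic peptides that hold actin monomers back from polymerization, and thymosin β4 is also found outside cells, where it promotes migration of endothelial cells and wound repair. Prothymosin α and parathymosin are small, very acidic nuclear proteins that bind histones, and prothymosin α also restrains the apoptosome and acts outside cells. Leukocytes, fibroblasts and endothelial cells express these genes strongly.

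RNA-seq libraries came from heart tissue of adult mice on a backcrossed C57BL/6J background, 14 days after permanent occlusion of the left anterior descending coronary artery (myocardial infarction, MI). The 3 control mice are labelled WT and are described in the methods as Zeb2 fl/fl, that is, carrying the floxed alleles without Cre. The 3 Zeb2 cKO mice carried the same floxed alleles and Cre recombinase under the murine Myh6 promoter, so the deletion was directed to cardiomyocytes while the counts came from all cells of the tissue. The labels place the tissue in the border region of the infarct, whereas the methods name the remote zone, and libraries of sham-operated mice were not analysed here.

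The libraries held 37288174 to 51136331 counts, of which 14301225 to 19024394 lay outside the 37 mitochondrially encoded genes. Zeb2 itself, the targeted transcription factor, was at 61.3, 116 and 71.9 CPM (counts relative to library size, scaled with TMM) in WT replicates 1, 2 and 3 and 59.6, 72.6 and 66.5 CPM in Zeb2 cKO, so the groups overlapped, with a log2 fold change of -0.33 ± 0.25 (SE) that was -0.01 without WT 2. WT 2 stood apart from the other libraries: its log2 CPM correlated with theirs at 0.935 to 0.953, against 0.981 to 0.989 among the other 5, and the differences between the groups are therefore also given without it. Over the marker genes of 11 cell types that the tissue could hold, the fibroblast sum in WT 2 was 5.03 times and the macrophage sum 3.49 times the mean of WT 1 and WT 3, while the cardiomyocyte sum was 0.517 times that mean.

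The members lie at separate places in the mouse genome (GRCm38). Tmsb4x (ENSMUSG00000049775) occupies chrX:167207093-167209315 on the minus strand and Tmsb10 (ENSMUSG00000079523) chr6:72957347-72958748 on the minus strand. Ptma (ENSMUSG00000026238) occupies chr1:86526726-86530712 on the plus strand and Ptms (ENSMUSG00000030122) chr6:124913681-124920103 on the minus strand. Ptms is the only member that shares its place with another annotated gene, the antisense A230083G16Rik, which had 1 to 4 counts in a library against 715 to 1435 for Ptms. The coding sequences of the thymosin pair are shown because they tell how far reads of these relatives can be separated, with the differing bases in capitals.
Tmsb4x coding sequence: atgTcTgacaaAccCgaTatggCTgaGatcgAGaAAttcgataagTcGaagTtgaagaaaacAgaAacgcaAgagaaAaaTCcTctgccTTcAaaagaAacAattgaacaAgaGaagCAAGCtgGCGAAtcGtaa
Tmsb10 coding sequence: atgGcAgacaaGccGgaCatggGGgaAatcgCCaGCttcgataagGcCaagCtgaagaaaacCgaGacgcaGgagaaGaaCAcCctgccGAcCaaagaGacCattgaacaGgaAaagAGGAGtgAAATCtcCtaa
Both run over 135 bases and encode 44 amino acids each, and 95 of the 135 bases, or 70.4%, are identical when compared base to base. This Tmsb4x reading frame is annotated for 1 of 3 transcripts, and the remaining 2 begin at an ATG further upstream and run over 153 bases. Ptma and Ptms, of 336 and 306 coding bases, shared 65.3% of their aligned positions. Along the longest transcripts of Tmsb4x and Ptms, no window of 75 bases lay within 3 edits of another gene's transcript.

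Tmsb4x was by far the most abundant member. It was at 121 CPM in WT 1, 318 in WT 2 and 164 in WT 3, and at 134, 143 and 159 CPM in Zeb2 cKO replicates 1 to 3. All 3 Zeb2 cKO libraries thus lay between WT 1 and WT 3, and WT 2 was 2.23 times the mean of the other 2 WT libraries. The group means were 201 ± 104 (SD, n = 3) in WT and 145 ± 12.9 (SD, n = 3) in Zeb2 cKO. The log2 fold change of Zeb2 cKO over WT was -0.47 ± 0.35 (SE), with a 95% interval from -1.29 to 0.35 and an adjusted p of 0.957 in edgeR's quasi-likelihood test after Benjamini-Hochberg correction. An exact permutation test of the mean CPM gave p = 0.6, two-sided, where 3 against 3 mice cannot go below 0.1. Without WT 2 the log2 fold change was 0.03 ± 0.15 (SE), with an interval from -0.32 to 0.38.

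Tmsb10, the paralog of Tmsb4x, was the least abundant member. It was at 2.71 CPM in WT 1, 6.27 in WT 2 and 2.86 in WT 3, against 2.32, 3.27 and 4.001 CPM in the Zeb2 cKO libraries. WT 2 was again the highest library, at 2.25 times the mean of WT 1 and WT 3, and Zeb2 cKO 2 and 3 were above both of these. These values rest on 102 to 275 counts per library, so that counting error alone was 9.90% at the lowest count. The coefficient of variation was 51.0% among WT libraries, which rests on WT 2, and 26.4% among Zeb2 cKO libraries. WT 1 and WT 3 lay within that counting error of each other. The log2 fold change was -0.31 ± 0.38 (SE), with a 95% interval from -1.20 to 0.59 and an adjusted p of 0.957 in edgeR's quasi-likelihood test after Benjamini-Hochberg correction (exact permutation p = 0.8, two-sided). Without WT 2 it was 0.20 ± 0.24 (SE).

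Ptma, which encodes prothymosin α, also had its highest level in WT 2. Its level was 16.2 CPM in WT 1, 37.8 in WT 2 and 17.9 in WT 3, and 15.4, 16.3 and 18.7 CPM in the Zeb2 cKO libraries. Aside from WT 2, which was 2.21 times the mean of WT 1 and WT 3, the libraries of both groups lay within 15.4 to 18.7 CPM. The log2 fold change was -0.52 ± 0.32 (SE), with a 95% interval from -1.28 to 0.25 and an adjusted p of 0.957 in edgeR's quasi-likelihood test after Benjamini-Hochberg correction (exact permutation p = 0.5, two-sided). It was -0.02 ± 0.12 (SE) without WT 2, with an interval from -0.31 to 0.26.

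Ptms, the gene of the histone-binding parathymosin, varied least between the groups. It was at 23.0, 26.8 and 18.6 CPM in WT 1, 2 and 3, and at 18.7, 22.0 and 26.7 CPM in replicates 1 to 3 of Zeb2 cKO, so the groups covered almost the same range. WT 2 and Zeb2 cKO 3 were the highest libraries and were nearly equal. WT 2 was 1.29 times the mean of WT 1 and WT 3, a smaller excess than for the other members. The log2 fold change was -0.02 ± 0.19 (SE), with a 95% interval from -0.46 to 0.42 and an adjusted p of 0.992 in edgeR's quasi-likelihood test after Benjamini-Hochberg correction (exact permutation p = 0.8, two-sided). Without WT 2 it was 0.12 ± 0.17 (SE).

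**Figure D1:**
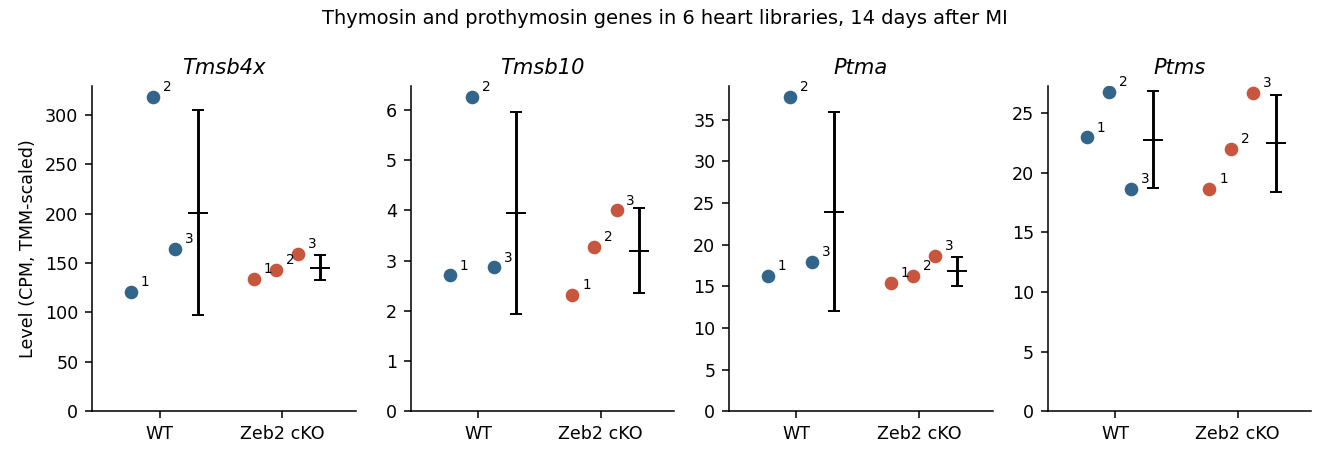
Level of each member in CPM (vertical axes, from 0) in 3 WT libraries (blue) and 3 Zeb2 cKO libraries (red), with replicate numbers beside the points and the group mean ± SD as a black bar. WT 2, at 318 CPM for Tmsb4x, 6.27 for Tmsb10 and 37.8 for Ptma, lies above the other 5 libraries, which overlap between the groups.

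Over the family, 0 of 4 members had an adjusted p under 0.05 in edgeR, where 0% of the 14746 tested genes did, and 0 of 4 had an unadjusted p under 0.05, where 1.90% of tested genes did (280 genes). DESeq2 called 2 genes, Slc46a2 and Mrap2, named here after their values were seen and neither of them a member. The groups overlapped for all 4 members, while 6.36% of tested genes had groups that did not overlap. A log2 fold change under -0.2, the size of change that the study used, was reached by 3 of 4 members, where 22.6% of tested genes reached it. Without WT 2 this count was 0 of 4, beside 11.7% of tested genes. The study had listed Tmsb4x, Tmsb10 and Ptma among its factors with a lower level in these same libraries, so their direction here is not independent evidence. The study also reports significantly lower Tmsb4 and Ptma mRNA in measurements of Zeb2 cKO mice after MI. It further reports less of both proteins by immunofluorescence 14 days after MI. Neither of these measurements was analysed here. In bulk tissue, fewer cells of a type and less RNA per cell cannot be told apart.

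**Figure D2:**
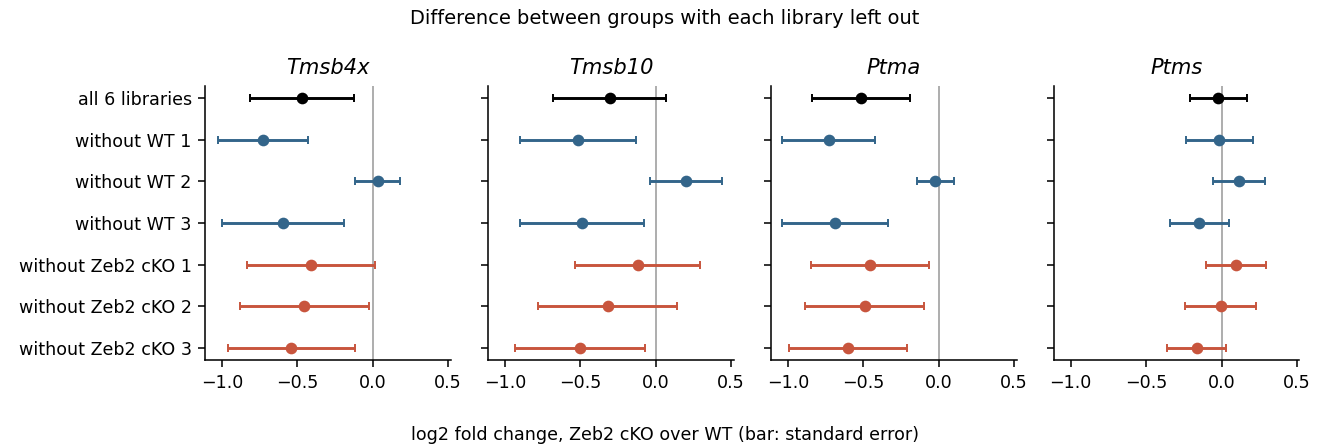
Log2 fold change of Zeb2 cKO over WT (horizontal axis) ± SE from edgeR for each member with all 6 libraries (black) and with each WT (blue) or Zeb2 cKO (red) library left out. For Tmsb4x the value runs from -0.73 without WT 1 to 0.03 without WT 2, and for Ptma from -0.73 without WT 1 to -0.02 without WT 2.

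Levels were then compared between members per length, as CPM per kilobase of annotated exon. In WT, Tmsb4x was at 147 ± 75.6 (SD, n = 3), Ptma at 16.4 ± 8.19, Ptms at 14.1 ± 2.52 and Tmsb10 at 3.09 ± 1.58 CPM per kilobase. In Zeb2 cKO, Tmsb4x was at 106 ± 9.41 (SD, n = 3), Ptms at 13.9 ± 2.49, Ptma at 11.5 ± 1.16 and Tmsb10 at 2.51 ± 0.661 CPM per kilobase. Tmsb4x was the highest and Tmsb10 the lowest in every library, whereas Ptma and Ptms overlapped in range within each group. Ptma had the higher mean of these in WT through WT 2 alone: over WT 1 and WT 3 the means were 11.7 for Ptma and 12.8 for Ptms, in the order seen in Zeb2 cKO, with 104 for Tmsb4x and 2.18 CPM per kilobase for Tmsb10. By this measure Tmsb4x ranked 85 of 14573 genes in WT and 115 in Zeb2 cKO. Ptma ranked 777 and 1152, Ptms 932 and 921, and Tmsb10 4655 and 5449, in WT and Zeb2 cKO respectively. Over WT 1 and WT 3 the ranks were 119 for Tmsb4x, 1157 for Ptma, 1021 for Ptms and 6090 for Tmsb10. The ranks of Tmsb10 and Ptma leave out the counts listed under their pseudogenes.

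Within a library, Tmsb10 was 37.0 to 53.7 times lower than Tmsb4x per length. This leaves out the counts under near-identical copies of Tmsb10, described below, which held 59.0% to 65.5% of the summed counts. The log2 ratio of Tmsb10 to Tmsb4x was -5.56 ± 0.18 (SD, n = 3) in WT and -5.43 ± 0.28 (SD, n = 3) in Zeb2 cKO, a difference of 0.12 (exact permutation p = 0.6, two-sided) that was also 0.12 without WT 2. For Ptms over Ptma the log2 ratio was 0.35, -0.64 and -0.09 in WT 1, 2 and 3 and 0.13, 0.29 and 0.37 in Zeb2 cKO replicates 1 to 3. Thus WT 2 was the library with the least Ptms per Ptma, and the other 5 did not separate by group. The difference of the means was 0.39 (exact permutation p = 0.3, two-sided) and 0.13 without WT 2. With the counts of the near-identical copies of Ptma added and all libraries kept, it was 0.19.

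Tmsb10 and Ptma have near-identical copies elsewhere in the genome. Of 616 windows of 75 bases along the longest Tmsb10 transcript, 56.0% lay within 3 edits of a transcript of another gene and 32.8% were identical to it, over 7 other genes in all. For Ptma, 58.0% of 1142 windows lay within 3 edits and 22.8% were identical, over 17 other genes. These shares cover all copies, with or without counts. The copy with most counts for Tmsb10 was Gm3788, a processed pseudogene of 136 bases at chr3:86672033-86672168 (minus strand) inside Lrba, which lies on the opposite strand. For Ptma it was Gm4617, a processed pseudogene of 331 bases at chr3:124385667-124385997 (plus strand) that overlaps no other annotated gene. Gm3788 alone came within 3 edits of 10.7% of the Tmsb10 windows and Gm4617 alone of 23.3% of the Ptma windows. The stretches in which each pair differs are shown with the extra bases in capitals, from the start of the coding sequence for Tmsb10 and from the acidic run for Ptma.
Tmsb10: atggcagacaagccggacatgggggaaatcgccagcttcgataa
Gm3788: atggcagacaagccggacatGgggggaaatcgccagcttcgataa
Ptma: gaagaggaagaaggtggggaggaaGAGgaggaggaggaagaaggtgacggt
Gm4617: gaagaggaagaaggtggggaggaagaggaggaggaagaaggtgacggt
Gm3788 holds the whole coding sequence of Tmsb10 with 1 base more, in a run of g that allows 6 equal placements. Gm4617 holds the coding sequence of Ptma, from its second to its last-but-one base, with 3 bases fewer in a repeat that allows 12 equal placements. Apart from these bases each pair is identical over the length of the pseudogene. Reads that lie within this stretch and do not span the place of difference carry nothing that tells gene from pseudogene. How the authors assigned such reads is not given in the sources used here. Reads of the gene from outside this stretch can differ, and most windows of Tmsb10 and Ptma were not within 3 edits of Gm3788 or Gm4617.

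Gm3788 had more counts than Tmsb10 itself in every library. It was listed with 188, 503 and 194 counts in WT 1, 2 and 3, where Tmsb10 had 102, 275 and 110. In the Zeb2 cKO libraries it was listed with 194, 237 and 307 counts, where Tmsb10 had 116, 142 and 215. Gm3788 was 2.28 times higher in WT 2 than the mean of WT 1 and WT 3, close to the 2.25 times of Tmsb10, while its host gene Lrba was at 0.762 times that mean. The log2 fold change of Gm3788 was -0.52 ± 0.36 (SE), with an adjusted p of 0.957 in edgeR's quasi-likelihood test after Benjamini-Hochberg correction, and 0.0016 without WT 2. The copies held 59.0% to 65.5% of the summed counts of Tmsb10 and its copies. Gm9844, a gene annotated as protein-coding whose transcript came within 3 edits of the same 56.0% of Tmsb10 windows, had 0 counts in every library.

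Gm4617 did not follow Ptma in WT 2. It was listed with 615, 872 and 548 counts in WT 1, 2 and 3, where Ptma had 611, 1658 and 689. In the Zeb2 cKO libraries it was listed with 793, 720 and 973 counts, where Ptma had 771, 706 and 1004. The pseudogene and the gene were thus near equal in WT 1 and the Zeb2 cKO libraries, Ptma was somewhat higher in WT 3, and in WT 2 it stood far above Gm4617. In CPM, Gm4617 in WT 2 was 1.30 times the mean of WT 1 and WT 3, against 2.21 times for Ptma. The log2 fold change of Gm4617 was 0.00 ± 0.15 (SE), and that of Gm9800, a further Ptma pseudogene with 647 counts over all libraries, was -0.03 ± 0.20 (SE). Without WT 2 these were 0.14 and 0.11. The copies held 37.9% of the summed Ptma counts in WT 2 and 48.0% to 54.7% in the other 5 libraries.

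When the counts of the copies were added to their gene, the log2 fold change of Tmsb10 was -0.44 and that of Ptma -0.26, with every adjusted p above 0.05 in edgeR's quasi-likelihood test. Ptma had the lower of these 2 values in the counts as listed, and Tmsb10 had the lower one with the copies added. With the copies added and WT 2 left out, an alternative chosen after seeing the data, the log2 fold changes were 0.06 ± 0.19 (SE) for Tmsb10 and 0.06 ± 0.10 (SE) for Ptma. Whether reads of the genes were counted for the copies was not tested. Tmsb4x and Ptms, with no such window, had the same counts in either table.

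**Figure D3:**
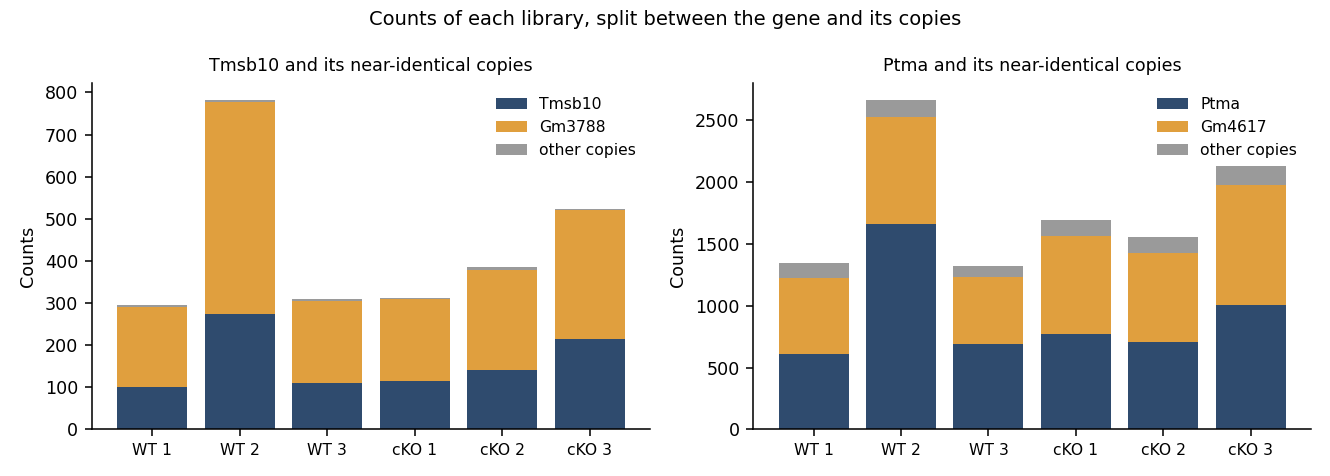
Raw counts (vertical axes) of Tmsb10 and Ptma (dark blue), of the copy with most counts, Gm3788 or Gm4617 (orange), and of all other near-identical copies (grey) in each library, stacked. Gm3788 exceeds Tmsb10 in all 6 libraries, and Gm4617 is farthest below Ptma in WT 2, with 872 against 1658 counts.

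Tmsb4x, Tmsb10 and Ptma were highest in the library that also stood apart in its cell type markers, WT 2. Summed over 14 macrophage markers, WT 2 was at 901 CPM, WT 1 and WT 3 at 218 and 298 CPM, and the Zeb2 cKO libraries at 257 to 275 CPM. Summed over 9 fibroblast markers, WT 2 was at 9786 CPM, WT 1 and WT 3 at 1729 and 2159 CPM, and the Zeb2 cKO libraries were at 1752 to 2373 CPM. Summed over 9 cardiomyocyte markers, WT 2 was at 12882 CPM, WT 1 and WT 3 at 26803 and 23060 CPM, and the Zeb2 cKO libraries at 21229 to 25632 CPM. All markers of these 3 lists had counts, and none was at 0 in all libraries. Hence the library with the most Tmsb4x, Tmsb10 and Ptma was also the one with the most fibroblast and macrophage transcripts and the fewest cardiomyocyte transcripts, and the part of these cells in the members' levels was not tested.

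Over the lists, 13 of 14 macrophage markers and 9 of 9 fibroblast markers had a log2 fold change under -0.2 with all 6 libraries, with medians of -0.84 and -0.995. Without WT 2, 0 of 14 and 0 of 9 did, and the medians were 0.02 and 0.10. Of the members, Tmsb4x, Tmsb10 and Ptma were under -0.2 with all libraries and not without WT 2, while Ptms, at -0.02, was not under it with all libraries either. The median over the 4 members was -0.39 with all libraries and 0.07 without WT 2. The medians without WT 2 were -0.13 for 4 lymphocyte markers, -0.01 for 10 endothelial, 0.00 for 7 mural and -0.08 for 9 cardiomyocyte markers, -0.89 for 3 neutrophil, 0.28 for 3 platelet, -0.06 for 5 erythroid, 1.90 for 2 adipocyte and 0.95 for 4 mesothelial markers. No marker of any list had an adjusted p under 0.05 in edgeR's quasi-likelihood test. The adipocyte sum was low in both groups but did not overlap, at 0.205 to 0.345 CPM in WT and 0.763 to 1.699 CPM in Zeb2 cKO, and its part in the members' levels was not tested.

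**Figure D4:**
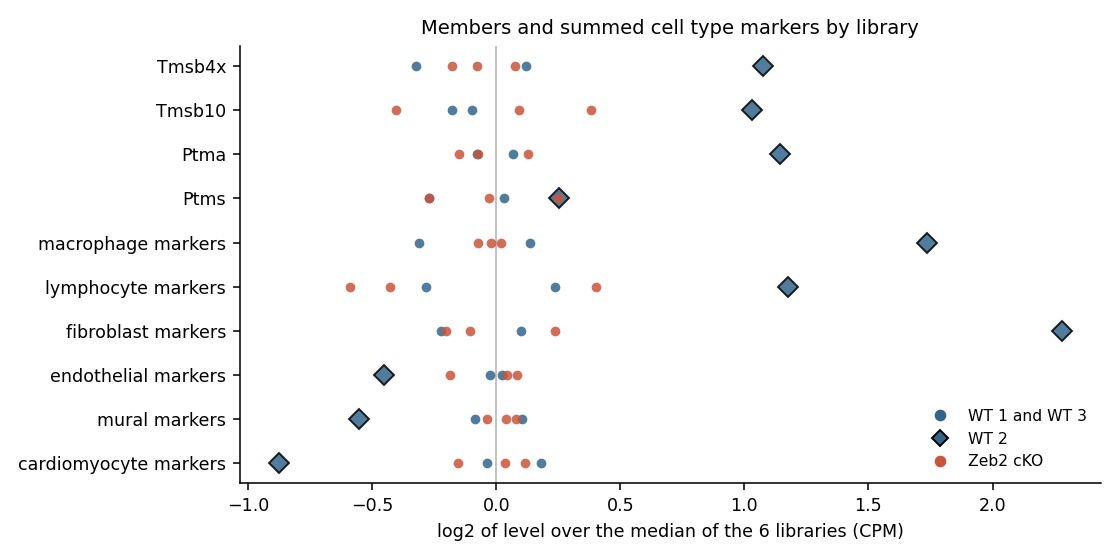
Level of each member and summed level of marker genes of 6 cell types, as the log2 of CPM over the median of the 6 libraries (horizontal axis), for WT 1 and WT 3 (blue circles), WT 2 (blue diamond) and Zeb2 cKO (red circles). WT 2 is the highest library for Tmsb4x, Tmsb10, Ptma, macrophage, lymphocyte and fibroblast markers and the lowest for endothelial, mural and cardiomyocyte markers.

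Across the 6 libraries the members' log2 CPM correlated at 0.91 for Tmsb4x with Tmsb10, 0.98 for Tmsb4x with Ptma and 0.92 for Tmsb10 with Ptma. Ptms correlated at 0.52 with Tmsb4x, 0.61 with Ptma and 0.81 with Tmsb10. These values are descriptions over 6 points that share the position of WT 2. Over the 5 libraries without it they were 0.58, 0.80 and 0.78 among the first set, and 0.03, 0.48 and 0.81 for Ptms. Tmsb10 and Ptms thus had the pair value that changed least, while that of Tmsb4x with Ptms was near 0 without WT 2.

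The genes most like each member in this respect were picked by the highest Pearson r of log2 CPM over the 6 libraries, out of all tested genes except the member's copies. For Tmsb4x they were Ptgs1, Lcp1, Dab2, Tmem167 and Cysltr1 (r = 0.998 to 0.999). For Ptma they were Zfp36l1, Was, Pdlim2, P3h3 and Tns3 (r = 0.998 to 0.999). For Tmsb10 they were a gene without a symbol (ENSMUSG00000079662), Grn, Fam107b, Unc5c and Rbbp8 (r = 0.992 to 0.997), and for Ptms they were Alg9, Syde1, Hunk, Supt20 and Coro7 (r = 0.974 to 0.992). Lcp1, which encodes the actin-bundling protein of blood cells, was at 15.7 CPM in WT 1 and 69.6 CPM in WT 2, and 28.4% of its windows lay within 3 edits of another gene. Without WT 2, 0 of 5 of these genes stayed among the 5 most alike for Tmsb4x, Tmsb10 and Ptma, and 1 of 5, Alg9, did for Ptms. Their r over the remaining 5 libraries was 0.985 to 0.997 for the genes of Tmsb4x and 0.976 to 0.988 for those of Tmsb10. It was 0.962 to 0.989 for the genes of Ptma and 0.966 to 0.990 for those of Ptms. The genes were picked on libraries that include these 5, so a high r here follows in part from the choice and does not test the likeness.

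Genes that work with the members were read from lists by role. The actin monomer pool, on which Tmsb4x and Tmsb10 act, holds profilins, cofilins and other actin-binding proteins. Among its 13 tested genes, the log2 fold change was under -0.2 for 4 and over 0.2 for 2, with a median of 0.01, where all tested genes had a median of -0.01, 22.6% were under -0.2 and 15.9% were over 0.2. Without WT 2 the list had 1 gene under -0.2 and 2 over 0.2. Twf2, a twinfilin that binds actin monomers, was at 54.2, 43.5 and 61.8 CPM in WT and at 38.9, 44.2 and 44.4 CPM in Zeb2 cKO, a log2 fold change of -0.32 ± 0.16 (SE). The groups overlapped through WT 2, and without that library the value was -0.44 ± 0.11 (SE), with an adjusted p of 0.9997 in edgeR's quasi-likelihood test. Pfn2, a profilin, had a log2 fold change of 0.30 ± 0.16 (SE), and 0.33 ± 0.17 (SE) without WT 2. Actb and Actg1, the cytoplasmic actins, were at -0.27 ± 0.24 and 0.44 ± 0.30 (SE), and at 0.03 ± 0.11 and 0.17 ± 0.18 (SE) without WT 2, with 52.0% and 56.4% of their windows within 3 edits of other genes.

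Free actin monomers hold back the MRTF coactivators of serum response factor (SRF). Among 12 tested genes of this pathway, 5 were under -0.2 and 1 was over 0.2, with a median of -0.05, beside the 22.6% and 15.9% of all tested genes. Without WT 2, 2 were under -0.2 and 1 over 0.2, with a median of -0.09, beside 11.7% of tested genes under -0.2. Mrtfa, the coactivator itself, was at 5.87, 7.82 and 6.12 CPM in WT and at 3.66, 4.91 and 5.49 CPM in Zeb2 cKO, so the groups did not overlap. The groups of Cnn2 in the same list did not overlap either, nor did those of 6.36% of all tested genes. The log2 fold change of Mrtfa was -0.49 ± 0.20 (SE). In edgeR's quasi-likelihood test its unadjusted p was 0.0425, and its p after Benjamini-Hochberg correction was 0.957. With all libraries it was the only gene of the pathway lists with an unadjusted p under 0.05, where 1.90% of all tested genes were. Without WT 2 its log2 fold change was -0.35 ± 0.18 (SE), with an unadjusted p of 0.0912 in that test. In that fit Twf2 was the only gene of these lists with an unadjusted p under 0.05, at 0.00405 (adjusted p of 0.9997). Ccn2, a matricellular factor and SRF target, was at 80.8, 340 and 87.5 CPM in WT and at 39.0, 49.0 and 93.1 CPM in Zeb2 cKO, and its log2 fold change of -1.49 ± 0.62 (SE) was -0.48 ± 0.33 (SE) without WT 2.

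Thymosin β4 has been placed with integrin-linked kinase and AKT in heart cells. Among 8 tested genes of this complex, 1 was under -0.2 and 0 were over 0.2, with a median of 0.05. Of all tested genes, 22.6% were under -0.2 and 15.9% over 0.2. Without WT 2 the counts were 0 and 0 with a median of 0.02, beside 11.7% of tested genes under -0.2. Parva, an actin-binding adaptor of the kinase, was at -0.27 ± 0.23 (SE), and Akt2, with 29.4% of its windows within 3 edits of other genes, was at 0.17 ± 0.18 (SE). Without WT 2 these were 0.02 ± 0.12 and 0.02 ± 0.12 (SE).

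Enzymes that cut thymosin β4 or prothymosin α, or their products, were measured with 3 of 4 genes tested. Ace, which cleaves the tetrapeptide Ac-SDKP released from thymosin β4, was at 51.0, 109 and 62.4 CPM in WT and at 50.8, 47.9 and 65.5 CPM in Zeb2 cKO, with a log2 fold change of -0.44 ± 0.29 (SE) that was -0.05 ± 0.16 (SE) without WT 2. Lgmn, a lysosomal protease that processes prothymosin α, was at -0.19 ± 0.23 and Prep, the prolyl oligopeptidase that releases Ac-SDKP, at 0.07 ± 0.15 (SE). Without WT 2 these were 0.13 ± 0.10 and -0.07 ± 0.10 (SE). Mep1a, which encodes a meprin subunit, had 0 counts in all 6 libraries, which leaves room for up to 3 counts in each. Of surface proteins tied to extracellular thymosin β4 or prothymosin α, P2rx4 was at -0.45 ± 0.26, Tlr4 at -0.40 ± 0.25 and Atp5b, a subunit of ATP synthase, at 0.23 ± 0.32 (SE). WT 2 was the highest library for P2rx4 and Tlr4 and the lowest for Atp5b, and without it the values were -0.10 ± 0.12, -0.20 ± 0.21 and -0.03 ± 0.17 (SE).

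Of 14 tested genes for nuclear partners of prothymosin α, such as histone chaperones and acetyltransferases, 3 were under -0.2 and 0 over 0.2. The list median was -0.16, and 22.6% of all tested genes were under -0.2 and 15.9% over 0.2. Without WT 2, 1 gene of the list was under -0.2 and 2 were over 0.2, with a median of -0.05. Nap1l1, a nucleosome assembly protein, was at -0.35 ± 0.24 (SE) and Set, a histone chaperone, at -0.24 ± 0.17 (SE). Without WT 2 they were at -0.07 ± 0.16 and -0.10 ± 0.14 (SE). Both share sequence with other genes, in 31.7% and 40.0% of their windows. The other β-thymosins of the mouse were nearly silent: Tmsb15a had 2 counts in WT 2 and 0 elsewhere, and Tmsb15b1, Tmsb15b2 and Tmsb15l had 0 counts in all 6 libraries, which leaves room for up to 3 counts in each.

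**Figure D5:**
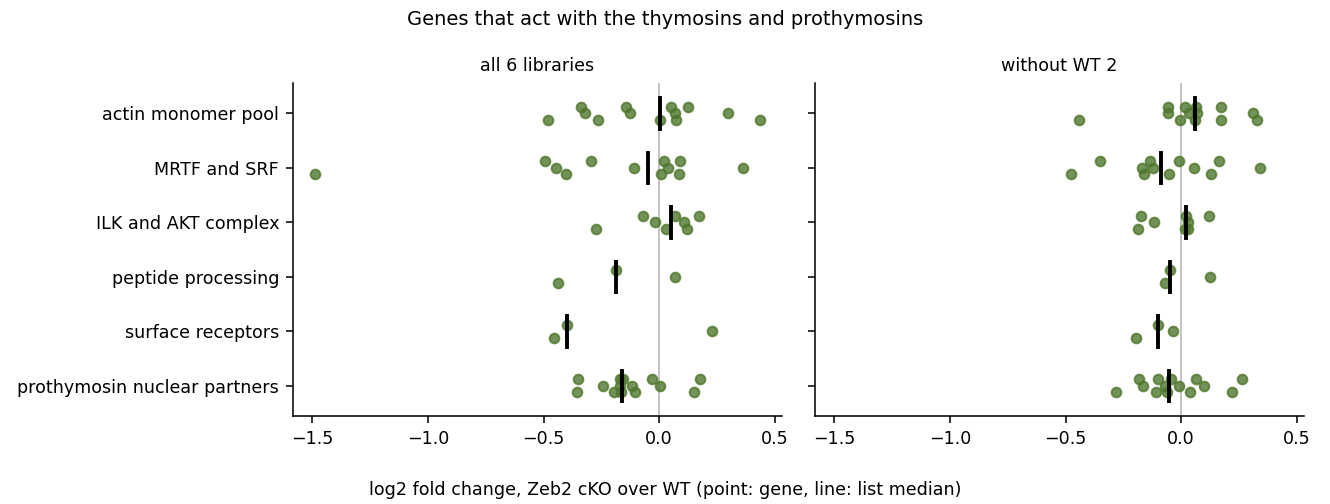
Log2 fold change of Zeb2 cKO over WT (horizontal axis) of the tested genes of 6 lists, with all 6 libraries (left) and without WT 2 (right). Points are genes and the black lines list medians, which run from -0.40 for surface receptors to 0.05 for the ILK and AKT complex with all libraries and from -0.10 to 0.06 without WT 2.

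ZEB2 binds E-box sequences of the form CACCT, most often as CACCTG. Both forms, of which CACCTG always contains CACCT, were searched on both strands of the RefSeq promoters of the members (GRCm38.p6), from 250 bases before to 50 bases after each annotated start. All 4 members had an entry, Tmsb10 with 3 starts. The matches are shown with the motif in capitals, as they bear on the regulation the study asked about.
Tmsb4x, chrX:167209200-167209228 (minus strand): tacgagtgacatCACCTcatttgcataga
Tmsb10, chr6:72958913-72958941 (minus strand): agtcctagctccCACCTccgcccttagac
Tmsb10, chr6:72958354-72958382 (minus strand): cgagagtgggagCACCTggagcgcgagct
Ptms, chr6:124918179-124918196 (minus strand): cCACCTcctcgccccact
Ptms, chr6:124918060-124918088 (minus strand): tcctcctatcccCACCTctccaacctcct
The Tmsb4x match begins at base 3 of the transcript side, and those of Tmsb10 and Ptms lie 130 to 249 bases before their starts. Only the Tmsb10 match at chr6:72958354-72958382 has the CACCTG form. The Ptma window held no match, and sequence outside these windows was not searched. For both mouse and human, the study reports several ZEB2 sites near the starts of Tmsb4 and Ptma. It also names ZEB2 motifs in enhancers of both genes, from existing ChIP-seq data. Whether those sites lie in the windows searched here was not tested. In the 32851 promoters of the table, 51.9% held CACCT and 20.2% CACCTG, so a match is a common feature of these windows and describes letters only.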

How the data were processed

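RNA-seq libraries of heart tissue from 3 WT (Zeb2 fl/fl) and 3 Zeb2 cKO mice were analysed, each from 1 mouse as labelled. Raw counts for each gene were deposited by the authors in 1 table, made per the methods from stranded, rRNA-depleted libraries with the STAR workflow on Gencode M4; the strand option and the handling of reads with several matches are not given in the sources used here. The submitters' processing notes name DESeq 1.2 and GRCm38. All 6 columns were matched to samples, and 0 were left unmatched.

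Counts were filtered with filterByExpr, scaled with TMM and tested with glmQLFit and glmQLFTest in edgeR 4.0.16 (R 4.3.3, prior count 0.125), adjusted over 14746 genes. Intervals are at 95%. DESeq2 1.42.0 served as an alternative. Symbols and coordinates came from Gencode M21 (GRCm38), with symbols for 14573 tested genes. Copies were searched with BLAST 2.17.0 and edit distance (Python 3.11.15) in windows of 75 bases with up to 3 edits (95% identity). The steps were tested on simulated data. The libraries held 14301225 counts or more outside the mitochondrially encoded genes. For each member, counting error at its lowest count was below the coefficient of variation in each group, in WT with WT 2 included. Such a comparison was not made for the marker genes, some of which had few counts.

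Named were the members, Zeb2, the 2 genes of smallest p in each list, all genes of the lists of peptide processing, surface receptors and other β-thymosins, up to 3 copies a member and the 5 genes most alike each member; Actb, Actg1, Lrba, Gm9844 and A230083G16Rik were added after their values were seen. Members and lists were chosen with earlier results of these data known.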

Additional observations from a re-analysis of the deposited data

How the results depend on the processing

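Of 238 values and counts recomputed under other settings, 17 differed in sign from the reported value: 11 values of members or their ratios, and 6 list medians of the actin monomer pool and of MRTF and SRF, both close to 0 as reported. Leaving out 1 library at a time gave log2 fold changes from -0.73 to 0.031 for Tmsb4x, -0.51 to 0.20 for Tmsb10, -0.16 to 0.12 for Ptms and -0.73 to -0.02 for Ptma, the upper values without WT 2, and Ptms was also at 0.10 without Zeb2 cKO 1. The differences of mean CPM ran from -97.1 to 3.03, -1.38 to 0.40 and -2.45 to 1.66 for Tmsb4x, Tmsb10 and Ptms. The members under -0.2 numbered 0 to 3. List medians ran from -0.13 to 0.061 for the actin monomer pool (lowest without WT 3), -0.22 to 0.028 for MRTF and SRF (lowest without Zeb2 cKO 2) and -0.61 to -0.10 for surface receptors (smallest in size without WT 2). With copies added, the log2 ratio of Tmsb10 to Tmsb4x differed by -0.0025, and with copies added and WT 2 left out, chosen after seeing the data, the log2 fold changes were 0.064 for Tmsb10 and 0.058 for Ptma. DESeq2 called 2 genes where edgeR called 0. Genes with an unadjusted p under 0.05 numbered 280 with all libraries, 1134 without WT 1, 122 without Zeb2 cKO 1, 181 without Zeb2 cKO 2 and 600 with no filter on low counts; the cause was not tested. Replicate numbers did not pair the mice (correlations of deviations of 0.09, -0.14 and -0.09), and with the replicate block the log2 fold changes were -0.35 for Tmsb4x, -0.23 for Tmsb10, -0.41 for Ptma and -0.02 for Ptms, with 247 genes at an unadjusted p under 0.05 and 0 at an adjusted one. Tmsb10, with 102 to 275 counts and copies, is the member measured with the least precision.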
